A study of Homo sapiens with 8 samples.

Results

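Among HepaRG cells profiled one by one, the cells with the highest summed level of 8 mesenchymal marker genes were described gene by gene. HepaRG is an established human hepatic cell line whose progenitors can mature along the hepatocyte or the biliary path, and here the cells were obtained terminally differentiated. The score of a cell was the mean, over COL3A1, DCN, LUM, PDGFRB, PDGFRA, COL6A3, PRKAR2B and KDR, of the natural logarithm of 1 plus its UMIs per 10000, where a UMI (unique molecular identifier) marks 1 counted cDNA molecule. The rule asked for 500 or more genes in a cell and a mitochondrial share of UMIs no higher than 20%, and left out 1477 cells under rotenone and 390 under 20 µM cycloheximide. A further 3937 cells were above the mitochondrial limit and none was under the gene minimum. Of the 12976 cells of the series 7172 were kept, and the top 10% by score, 717 cells, are called high-score cells below. The remaining 6455 are called the other cells.

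All cells came from a single line, grown for 7 days in plating medium and then exposed for 24 h. The groups were the vehicle, 0.1% DMSO (783 kept cells), culture medium alone (808), and 6 chemicals with known targets. The kept cells had received brefeldin A at 0.001, 0.01 or 0.1 µM, cycloheximide at 0.2 or 2 µM, etoposide at 0.25, 2.5 or 25 µM, tert-butylhydroquinone (tBHQ) at 3, 30 or 300 µM, troglitazone at 50 µM, or tunicamycin at 0.001, 0.01 or 0.1 µM. Brefeldin A blocks transport from the endoplasmic reticulum (ER) to the Golgi, tunicamycin blocks N-glycosylation, cycloheximide blocks translation, etoposide inhibits topoisomerase II, tBHQ activates NRF2 and troglitazone is a PPARγ agonist. The medium group and the 50 µM dose stand only in the table of cells, while the GEO labels list troglitazone at 0.001 to 0.1 µM and no medium group. The 8 deposited samples are sublibraries, aliquots of the pooled cells of every treatment. Treatments therefore came from the sample names in the table of cells, each a treatment and a run number. What a run is was not defined in the sources used here, and the study describes a single treated culture per condition, so sample names may be technical repeats of it and p-values measure only the spread between them.

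Mesenchymal cells such as fibroblasts, hepatic stellate cells and pericytes build the connective tissue of an organ. They secrete fibrillar collagens and the small proteoglycans decorin and lumican, which bind collagen fibrils and set their spacing, and they are kept alive and recruited by platelet-derived growth factors acting on the receptors PDGFRA and PDGFRB. In the liver, stellate cells are the main source of scar collagen, whereas hepatocytes make plasma proteins and the drug-metabolising enzymes.

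The rule set the limit at a score of 0.4796 (the last high-score cell) against 0.4795 (the first other cell), with no gap between them. Within 0.05 of the limit lay 157 high-score and 177 other cells, so membership near it is a cut through a continuous range. High-score cells held a median of 26239 UMIs from 6674 genes, against 42030 UMIs from 8188 genes in the other cells, and a median of 13.8% against 15.2% mitochondrial UMIs. They made up 8.41% to 11.6% of the kept cells of each sublibrary, and 33 of the 41 sample names held at least 1. The 8 sample names without any held 2 to 22 kept cells each. Of 12063 barcode combinations, 822 occurred in more than 1 sublibrary (1735 cells), and each was kept as a cell of its sublibrary. DMSO run 4, troglitazone run 4 and cycloheximide 0.2 µM run 4 stood apart with medians of 0.807% to 2.93% mitochondrial UMIs in their high-score cells, each of 6 to 8 cells and so too few for the comparisons by sample name.

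The 8 score genes chose the cells, so their values are a description. COL3A1 encodes the chain of type III collagen, and PRKAR2B a regulatory subunit of protein kinase A. KDR is the main VEGF receptor of endothelial cells. Levels are given as CPM, a gene's UMIs in parts per 1e+06 of all UMIs of the summed cells, compared only between cells and not between genes, since UMIs were not scaled to gene length. Over the 22 sample names with at least 10 high-score cells (640 of the 717), COL3A1 was at 225 CPM in the lowest, 413 in the median and 762 in the highest sample name in high-score cells, and at 3.79, 28.8 and 74.3 CPM in the other cells. PRKAR2B was at 96.5, 183 and 371 CPM against 11.9, 21.6 and 37.8 CPM. KDR was at 60.9, 139 and 252 CPM against 28.4, 55.8 and 81.8 CPM. KDR was thus the score gene that the other cells held most of relative to the high-score cells, and its 2 ranges overlapped.

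COL3A1 gave the largest addend of the score in 378 high-score cells, PRKAR2B in 139, DCN in 110 and KDR in 74, with PDGFRB in 10 and LUM in 6. PDGFRA and COL6A3 led in no cell and reached only 7.14 and 14.0 CPM in the mean over sample names (1.71 and 1.38 in the other cells). UMIs of 5 or more of the 8 genes stood in 544 high-score cells (75.9%) and in 12.6% of the other cells. After each cell was thinned to 10000 UMIs, which left out 17 high-score and 107 other cells that were shallower, 91.4% of high-score and 9.66% of other cells held at least 3 of the 8. These shares restate the rule, which takes the mean over the same genes.

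Among all kept cells, the log levels of the score genes rose and fell together, with Pearson's r of 0.53 for COL3A1 and PDGFRB, 0.50 for COL3A1 and LUM and 0.49 for DCN and LUM over 7172 cells. These r are across cells that share libraries and depth, and are given without a test. Within the 717 high-score cells, r was 0.25 for DCN and LUM, -0.33 for COL3A1 and PRKAR2B and -0.36 for COL3A1 and KDR. The limit on the sum bears on the latter r, so nothing is read from their sign. LUM and DCN are neighbours on chromosome 12 (GRCh38, GENCODE 44, both on the minus strand), LUM at chr12:91102629-91111494 and DCN at chr12:91140484-91183217. PDGFRA (chr4:54229280-54298245) and KDR (chr4:55078481-55125595) lie near each other on chromosome 4.

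Outside the 8 score genes, the high-score cells held higher levels of some matrix genes, such as PCOLCE, SPARC and LAMA2, and lower levels of most hepatocyte markers. The log2 ratio of CPM + 1 in high-score against other cells was taken within each sample name, and a gene was counted when its median ratio was at least 2-fold and its sign the same in all 22. Of 13298 genes with at least 5 CPM over all kept cells, 284 (2.14%) were counted as higher and 756 (5.69%) as lower, beside a median log2 ratio over all genes of 0.02. Since the same cells were chosen by genes that move with these, the counts carry no test. The counts within the lists below are to be read beside these shares over all genes.

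**Figure D1:**
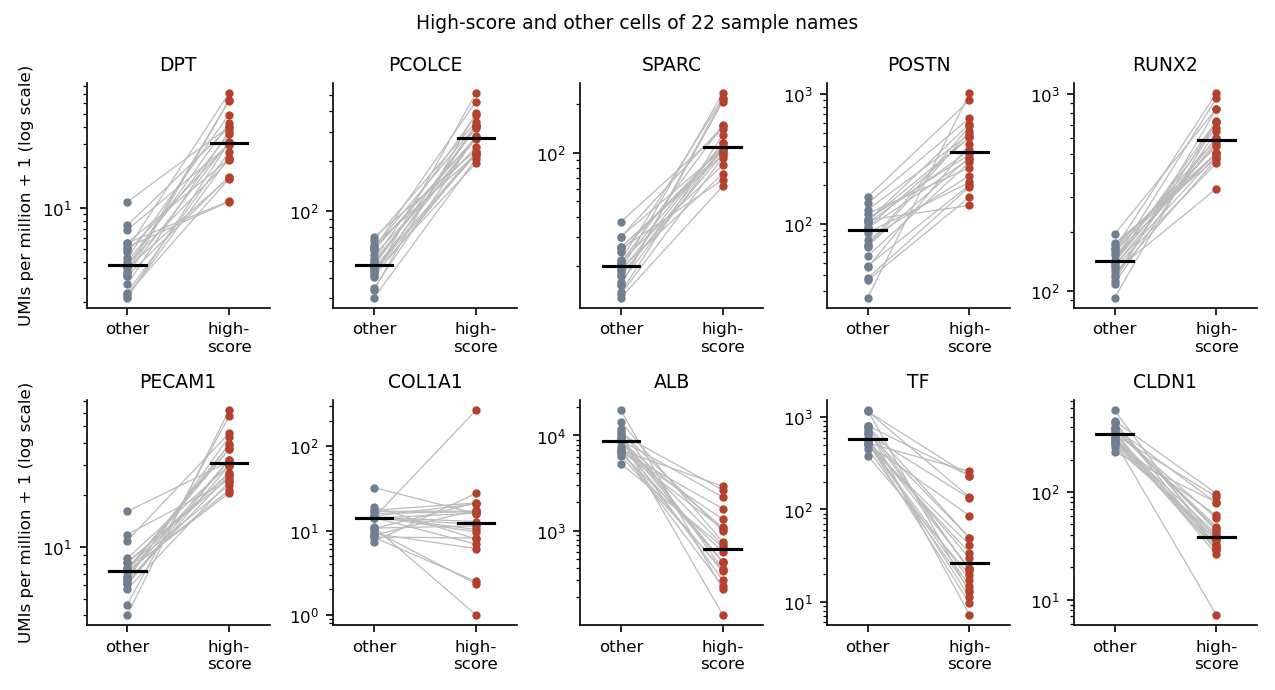
CPM + 1 (vertical axis, log scale) of 10 genes in the other cells (grey) and the high-score cells (red) of 22 sample names, each pair joined by a line, with the median as a bar. PCOLCE, SPARC and RUNX2 were higher in all 22 pairs and ALB, TF and CLDN1 lower, while COL1A1 had 10 pairs up and 12 down, with a single sample name at 265 CPM.

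Several of the genes with the largest ratios encode proteins that act on collagen outside the cell. DPT (dermatopontin, ENSG00000143196, chr1:168695468-168729206), which binds collagen fibrils, was at 10.1, 29.3 and 69.8 CPM (lowest, median and highest sample name) in high-score cells and at 1.17, 2.76 and 10.1 CPM in the other cells, a median log2 ratio of 2.99 (SD over sample names 0.92, n = 22). PCOLCE (ENSG00000106333, chr7:100602363-100608175), which speeds the cleavage of procollagen, was at 193, 275 and 510 CPM against 29.4, 46.9 and 69.1 CPM. SPARC (chr5:151661096-151686975), a collagen-binding glycoprotein, was at 61.1, 107 and 232 CPM against 11.8, 18.9 and 36.4 CPM. The 2 ranges of PCOLCE and of SPARC did not overlap, and those of DPT met at 10.1 CPM. Median log2 ratios were 2.45 for PCOLCE and 2.46 for SPARC.

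Further secreted or surface proteins were MGP, an inhibitor of calcification (median log2 ratio 2.77), EPYC, a small proteoglycan of the decorin and lumican family (2.82, higher in 21 of 22 sample names), C1QTNF7 (2.86), PODNL1 (2.47) and FAP (2.62), a serine protease known from activated fibroblasts. EPYC lies at chr12:90963682-91005026, in the same cluster as LUM and DCN, and was at 0 CPM in the high-score cells of medium run 6. FAP was at 8.13 CPM in high-score and 7.41 in other cells of cycloheximide 0.2 µM run 3, and at 78.2 against 0.71 CPM in DMSO run 6. RANBP3L (2.63) was the other protein-coding gene among the 15 largest. The remaining 6 were the non-coding genes LINC02511 (2.81), CCDC26 (2.45), ENSG00000232053 (2.94), ENSG00000233420 (2.54), ENSG00000225649 (2.54, in 21 of 22) and ENSG00000285751 (2.48).

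Most of the 15 genes with the lowest ratios are known from mature hepatocytes. MIR122HG, the host of the liver microRNA miR-122 (chr18:58445788-58453766), was at 0, 3.07 and 42.4 CPM in high-score cells and at 79.8, 145 and 229 CPM in the other cells, a median log2 ratio of -5.24. ONECUT1, a hepatocyte transcription factor, was at 0, 2.57 and 22.2 CPM against 50.4, 81.0 and 135 CPM. TF, the iron carrier of plasma, was at 6.23, 25.5 and 258 CPM against 379, 584 and 1182 CPM. In none of these 3 did the ranges overlap.

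Others among the 15 were AFM (a vitamin E-binding plasma protein), the glucuronosyltransferases UGT2B4 and UGT2B15, the transporters SLC17A4, SLC22A9 and SLC22A25, the acyl-CoA synthetases ACSM2A and ACSM2B, GBA3, WDR72 and ENSG00000260850. SLC22A25 was lower in 21 of 22 sample names and the others named here in all. ACSM2A and ACSM2B are near-identical, as are parts of the UGT2B genes, so the split of UMIs between them is uncertain. At 0 UMIs in some sample names, fitted ratios of these genes depend on the added 1 CPM and are no bounds.

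Of the matrix lists, 7 fibrillar and associated collagens were measured, of which 1 was counted as higher and none as lower (list median 0.76 against 0.02 over all genes). That gene was COL5A1, which starts type I and III fibrils, at 173, 433 and 770 CPM in high-score and 55.3, 144 and 280 CPM in other cells. COL14A1 was higher in 21 of 22 sample names (mean 30.5 against 7.57 CPM) and COL12A1 in 22 (294 against 159 CPM), both collagens on the surface of fibrils. COL5A2, which lies next to COL3A1 on chromosome 2, differed little (23.7 against 18.7 CPM, higher in 15 of 22). COL1A1, the main collagen of fibroblasts, had a median log2 ratio of -0.10 and was higher in 10 of 22 sample names.

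Of 9 matrix glycoproteins and proteoglycans measured, 4 were counted as higher and none as lower, with a list median of 1.15. These were SPARC, MGP, VCAN (versican, 137 against 59.7 CPM in the mean) and POSTN (periostin). POSTN was at 137, 354 and 1015 CPM in high-score and 25.8, 87.8 and 160 CPM in other cells, so its ranges overlapped although it was higher in all 22 pairs (median log2 ratio 2.17). FN1, fibronectin, was higher in 22 of 22 at 4933 against 2701 CPM, under the 2-fold limit, and FBN1 in 21 of 22 (71.8 against 24.5 CPM). Of 19 listed genes, 4, among them BGN and MFAP5, were under 1 CPM in both classes.

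Matrix enzymes and their inhibitors held 2 of 10 counted as higher, TIMP1 (199 against 82.02 CPM), an inhibitor of matrix metalloproteinases, and ADAMTS2 (103 against 38.8 CPM), which trims procollagen. MMP2 was higher in all 22 sample names (13.8 against 1.83 CPM), but was under the level limit of 5 CPM over all cells. LOX and LOXL1, which cross-link collagen, were under 1 CPM in both classes. In the basement membrane list, 1 of 11 was higher, LAMA2 (1154 against 498 CPM, a laminin chain of muscle and mesenchyme), and 1 lower, COL18A1 (88.3 against 245 CPM). The shares over all genes were 2.14% higher and 5.69% lower, and nothing is read about the list from 1 gene each way.

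**Figure D2:**
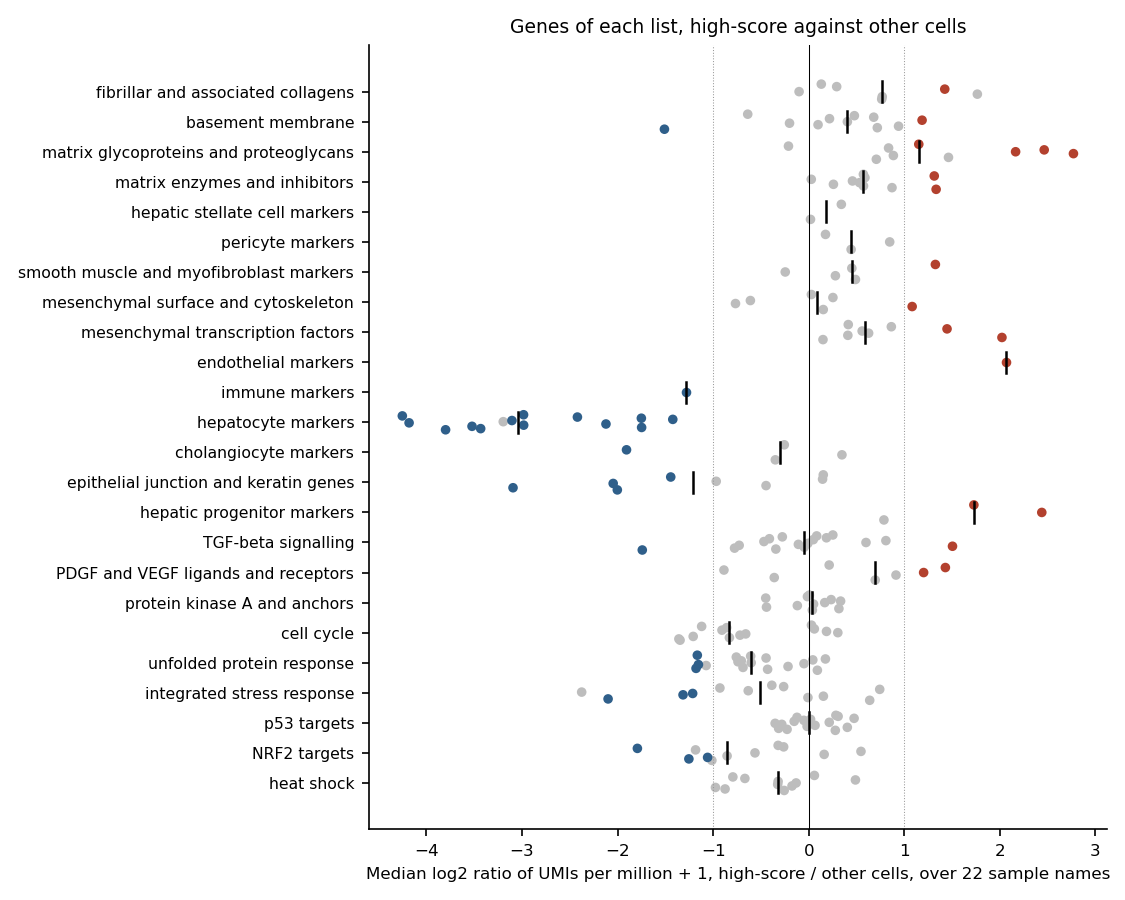
Median log2 ratio of CPM + 1, high-score over other cells (horizontal axis), for each measured gene of 24 lists, with red and blue points for genes counted as higher or lower, grey for the rest and a black bar at the list median. The hepatocyte markers sit between -4.25 and -1.42, and the matrix lists mainly to the right of 0.

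Markers of single mesenchymal cell types were mixed. Of 12 stellate cell markers, 8 were under 1 CPM in both classes, DES, HAND2 and NGFR among them, while LRAT, which stores retinol as esters, was at 101.4 against 77.3 CPM and CYGB at 70.9 against 74.4 CPM. Their summed level was 136 to 225 CPM in high-score and 129 to 187 CPM in other cells. Of the pericyte markers CSPG4 and NOTCH3 were at 2.32 and 1.01 CPM, and RGS5 at 71.4 against 64.7 CPM. Among smooth muscle genes, 1 of 5 was counted as higher, TPM2 (42.2 against 15.4 CPM). ACTA2, the actin of myofibroblasts, was at 51.0 against 33.7 CPM, higher in 19 of 22, and TAGLN, MYL9 and CNN1 were under 2 CPM.

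The markers that define mesenchymal cells in most tissues were in part absent. VIM was at 0.17 CPM in high-score and 0.24 in other cells, THY1 at 0.35 and 0.08, PRRX1 at 0.04 and 0.12, and COL1A2 was at 0 CPM in the high-score cells of 19 of 22 sample names. For VIM this says little about the cells, since the whole table held 226 UMIs of VIM and 12 of S100A6, genes that most cultured cells express strongly. VIM (chr10:17228241-17237593) overlaps VIM-AS1 (273 UMIs) on the opposite strand. Whether their low counts come from the counting was not tested. CDH11, a cadherin of mesenchymal cells, was counted as higher (148 against 63.4 CPM), and CDH2 was lower in all 22 sample names (121 against 202 CPM) and under the 2-fold limit. With COL3A1, DCN, LUM and PDGFRB present and these markers at or near 0, the name high-score cells is used here in place of a cell type.

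Among mesenchymal transcription factors 2 of 8 were counted as higher. RUNX2, the master regulator of osteoblasts, was at 331, 585 and 1013 CPM in high-score and 91.9, 141 and 194 CPM in other cells, with no overlap and a median log2 ratio of 2.02. TWIST2 was at 21.0, 37.1 and 48.8 CPM against 9.10, 12.2 and 16.1 CPM. ZEB1, a repressor of epithelial genes, was higher in all 22 at 329 against 177 CPM, under 2-fold. SNAI2 was at 30.8 against 23.0 CPM.

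Of 14 endothelial markers, 8 were under 1 CPM in both classes, CDH5, VWF and TIE1 among them, and only PECAM1 passed the level limit. PECAM1, an adhesion protein of endothelial cells and platelets (chr17:64319415-64413776), was at 19.5, 29.4 and 60.8 CPM in high-score and 3.03, 6.27 and 15.1 CPM in other cells. ERG was at 10.0 against 1.30 CPM, higher in 20 of 22. Of the immune markers PTPRC was at 1.23 against 0.28 CPM, and CD68, a lysosomal protein, was counted as lower (7.49 against 19.8 CPM). C1QA was at 0 CPM in high-score cells.

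Of 14 hepatocyte markers, 13 were counted as lower and none as higher, with a list median of -3.04. ALB (albumin, chr4:73397114-73421482) was at 129, 636 and 2934 CPM in high-score and 5041, 8662 and 18312 CPM in other cells. APOB, the protein of very-low-density lipoprotein, was at 613, 1089 and 2180 CPM against 2663, 4287 and 5483 CPM. HNF4A, a master regulator of hepatocytes, was at 41.2 against 107 CPM in the mean. CYP3A4, the exception, was lower in 20 of 22. The markers were reduced but not gone, and their summed level in high-score cells was 1645 to 7232 CPM per sample name against 11086 to 31007 CPM.

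Epithelial junction genes went with the hepatocyte markers, with 4 of 8 counted as lower and none as higher. CLDN1, a tight junction claudin, was at 6.23, 37.0 and 95.6 CPM against 235, 343 and 570 CPM, a median log2 ratio of -3.09. The other 3 were CDH1, the epithelial cadherin (6.20 against 25.6 CPM), OCLN, and the splicing factor ESRP2. Of the keratins, KRT8 did not follow them, at 170 against 152 CPM. KRT18 was lower in the mean, at 71.8 against 134 CPM, but was not counted. Among cholangiocyte markers SOX9 was counted as lower (6.03 against 20.7 CPM), KRT19 was at 95.9 against 78.7 CPM and EPCAM under 1 CPM in both classes.

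Of 3 measured progenitor markers 2 were counted as higher. NCAM1, an adhesion protein of nerve and of hepatic progenitors, was at 159, 228 and 419 CPM in high-score and 40.1, 63.6 and 121 CPM in other cells. H19, an imprinted fetal non-coding RNA, was at 12.02, 28.5 and 77.9 CPM against 0.12, 6.77 and 18.2 CPM. AFP and DLK1, the fetal liver markers of the list, were at 0.27 and 0 CPM.

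Ligands were partly higher with the receptors that had chosen the cells. Of 7 measured PDGF and VEGF genes 2 were counted as higher, PDGFD (199 against 82.9 CPM), a ligand of PDGFRB, and VEGFC (16.9 against 5.28 CPM). PDGFC, a ligand of PDGFRA (412 against 214 CPM), and NRP1, a VEGF co-receptor (393 against 240 CPM), were higher in all 22 sample names under 2-fold, and VEGFA was lower in 21 (37.3 against 70.5 CPM). The neighbouring receptor genes KIT and CSF1R were at 0.20 and 3.17 CPM. In the TGF-beta list 1 of 17 was higher, LTBP2 (61.7 against 20.8 CPM), which binds microfibrils, and 1 lower, BAMBI, a decoy receptor (4.64 against 19.1 CPM). With 2.14% of all genes counted as higher and 5.69% as lower, nothing is read about this list from 1 gene each way. Other subunits and anchors of protein kinase A did not go with PRKAR2B, with 0 of 11 counted and a list median of 0.04.

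Of the 5 stress lists, 3 had members counted as lower in the high-score cells and none had a member counted as higher. Among all measured genes, 5.69% were counted as lower and 2.14% as higher. In the unfolded protein response 0 of 17 were counted as higher and 3 as lower, the ER co-chaperone DNAJB11 (47.0 against 108 CPM), HERPUD1 and XBP1. In the integrated stress response 3 of 12 were lower, ATF3 (57.5 against 238 CPM), DDIT3 (41.3 against 100.2 CPM) and the hormone GDF15. NRF2 targets held 3 of 11 lower, OSGIN1 and the aldo-keto reductases AKR1C1 and AKR1C2, which are near-identical paralogs. No member of the p53 list (16) or the heat shock list (11) was counted in either direction, with list medians of 0.00 and -0.32.

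Cell cycle genes split the sample names. MKI67, a mark of cycling cells, was at 4.99, 69.3 and 374 CPM in high-score and 16.8, 113 and 379 CPM in other cells, lower in 16 and higher in 6 of the 22. TOP2A was likewise lower in 16 and higher in 6. None of 13 was counted, with a list median of -0.83.

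Shares of cells with a UMI, after thinning to 10000 UMIs (700 high-score and 6348 other cells), differed between the classes in the same direction as the levels. PCOLCE was found in 90.1% of high-score cells (exact Clopper-Pearson 95% interval 87.7% to 92.2%) and 29.0% of other cells, RUNX2 in 93.1% and 53.4%, POSTN in 69.3% and 25.7%, and SPARC in 55.9% and 14.0%. PECAM1 was found in 26.4% (23.2% to 29.9%) and 6.43%, DPT in 22.6% and 3.01%. For comparison, CDH5 was found in 0 of 700 high-score cells, which allows up to 0.526%, and in 0.047% of other cells. ALB was found in 93.3% and 97.1%. Intervals cover counting error only, and how many of these UMIs were free RNA was not estimated.

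**Figure D3:**
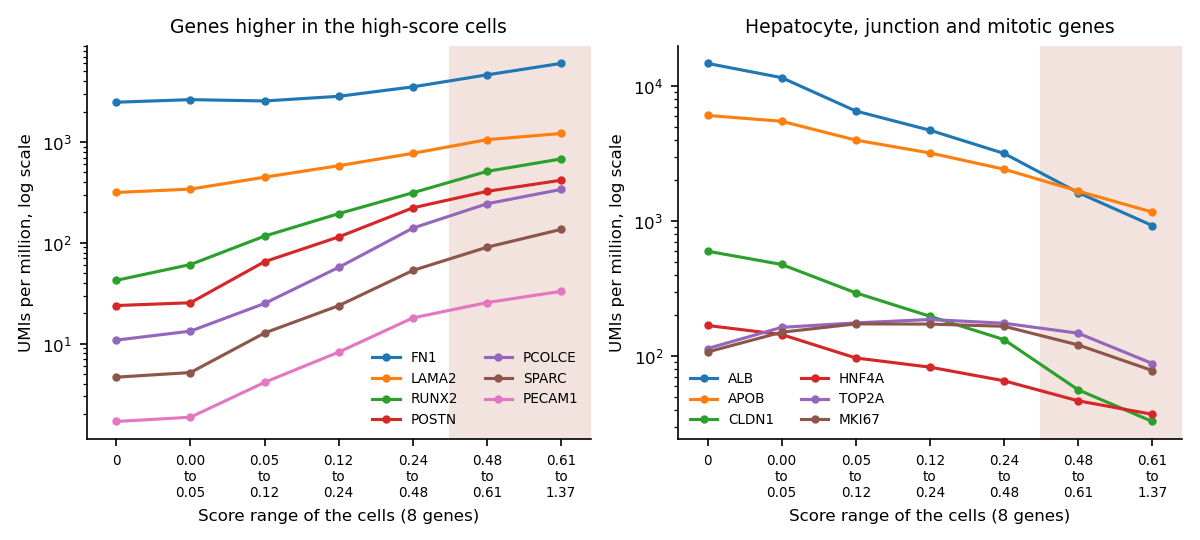
CPM (vertical axis, log scale) of 13 genes in 7 bins of cells ordered by score (horizontal axis), with the 2 bins of high-score cells shaded. POSTN, PCOLCE, RUNX2 and SPARC climb through the bins, ALB, APOB, HNF4A and CLDN1 fall through them, and TOP2A and MKI67 are highest in the middle.

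The mean levels changed over the whole range of the score. The 7 bins ran from the 1769 cells at a score of 0, through 4 bins of 1171 or 1172 other cells, to the lower 359 and upper 358 high-score cells. POSTN was at 23.9, 25.5, 65.0, 114, 222, 324 and 417 CPM in them, and PCOLCE at 10.9, 13.3, 25.0, 57.1, 140, 244 and 338 CPM. ALB went the other way, at 14723, 11545, 6536, 4709, 3170, 1623 and 926 CPM. Neither the rise of POSTN nor the fall of ALB broke off at the limit. These are means over the cells of a bin, in which a graded change and a changing mix of cells cannot be told apart. TOP2A was at 114 CPM at a score of 0, 187 in the fourth bin and 88.0 in the highest.

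To see whether the high-score cells lay together by other genes, all kept cells were clustered (Leiden, 18 clusters) with the 8 score genes removed. The cluster richest in them held 784 cells of 34 sample names, of which 461 (58.8%) were high-score cells, or 64.3% of all 717. Its leading genes were C1QTNF7, RANBP3L, LINC02511 and PCOLCE beside non-coding genes. The next, of 496 cells led by FABP4, held 109 (21.98%), and another, of 303 cells led by CA8, held 41 (13.5%). Clusters led by the S-phase genes FAM111B and CLSPN and by mitotic genes held 46 of 574 and 25 of 474. No high-score cell lay in 6 of the 18 clusters.

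The 323 other cells in the richest cluster were close to the high-score cells in it for some genes and lower for several matrix genes. Their median score was 0.358 against 0.629, and their POSTN was at 539 against 496 CPM, RUNX2 at 587 against 731 CPM, PECAM1 at 40.2 against 37.5 CPM and ALB at 402 against 431 CPM. SPARC was lower in them, at 88.0 against 149 CPM, as were PCOLCE (290 against 349 CPM), FN1 (4762.5 against 6041.5 CPM) and LAMA2 (1012.5 against 1223.9 CPM). DCN was at 45.8 against 178 CPM, as the rule implies. The 256 high-score cells outside it held more of the hepatocyte and mitotic genes, with ALB at 1973 CPM and TOP2A at 204 CPM against 8.67 CPM inside. They were also deeper, at a median of 49418 against 22529 UMIs. The 256 cells were a pool over several clusters. Their sums do not show that hepatocyte and mitotic genes were high in the same cells. Over all cells of a cluster, MKI67 was at 25.1 CPM in that led by FABP4, which held 109 of them. In the clusters led by S-phase and by mitotic genes, with 46 and 25 of them, MKI67 was at 422 and 1189 CPM. By leading score gene, POSTN was at 477 CPM in COL3A1-led, 293 in KDR-led, 207 in DCN-led and 196 in PRKAR2B-led cells. Of each, 52.7% to 68.3% lay in the richest cluster.

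A single cell stood apart. In etoposide 25 µM run 3, 1 high-score cell of 20811 UMIs held 99 of the 125 UMIs of COL1A2 (chr7:94394895-94431227) in all 12976 cells, and 220 UMIs of COL1A1 (chr17:50184101-50201632), the next highest cells holding 6 and 61. It also held 76 UMIs of POSTN, 8 of COL6A2 and 4 each of THY1 and BGN, and only 3 of ALB and 2 of APOB, with 10.1% mitochondrial UMIs and a score of 0.991. The COL1A1 level of its sample name was 265 CPM with it and 17.3 CPM without it, and COL1A2 111.7 and 0 CPM. SPARC was at 216 and 104 CPM. No other cell with this combination was seen, and the source of the cell was not tested.

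The size of the ratios was also read within each run, over treatments. Since the genes had been counted by their sign in the same cells, their sign within a run or sublibrary adds no support. The log2 ratio of POSTN was 2.081, 2.198, 1.499 and 3.913 in runs 3, 4, 5 and 6, that of PCOLCE 2.58, 2.51, 2.22 and 3.42, and that of ALB -3.66, -2.74, -2.11 and -4.78.

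The same score limit was set in the cells that the rule had left out. Of the 3937 cells above the mitochondrial limit, 83 (2.11%, exact interval 1.68% to 2.61%) reached it, and against the rest 284 of the 284 higher genes were higher, 258 of them at least 2-fold, where 3.37% of all genes were. Of the 756 lower genes all 756 were lower, 653 at least 2-fold (7.56% of all genes). Over all 13298 genes, 55.2% were higher in these cells. POSTN was at 130 against 27.3 CPM and ALB at 955 against 8091 CPM. Among the 1477 rotenone cells 30 reached the limit (2.03%). In these, 281 of 284 were higher, 241 at least 2-fold (11.2% of all genes), and 640 of 756 lower, 363 at least 2-fold (10.7%). Over all genes, 44.8% were higher in these cells. POSTN was at 615 against 44.4 CPM there. Under 20 µM cycloheximide 0 of 390 cells reached it, which allows up to 0.941%.

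The share of high-score cells lay near 10% under most treatments, the rule fixing the mean. It was 10.3% in DMSO (81 of 783, exact interval 8.30% to 12.7%), 11.9% in medium (9.73% to 14.3%) and 8.08% under troglitazone (6.21% to 10.3%). The extremes were cycloheximide at 2 µM with 4.43% (18 of 406, 2.65% to 6.92%) and at 0.2 µM with 14.8% (31 of 209, 10.3% to 20.4%). Sample names of the same treatment also differed. DMSO ranged from 6.30% in run 4 to 14.8% in run 5, troglitazone from 4.40% to 12.5%, and 0.1 µM tunicamycin from 5.91% to 14.8%. Cycloheximide at 2 µM was at 3.06% in run 3 and 8.04% in run 4. A share moves both with the number of such cells and with the score genes per cell, which cannot be told apart here, and treatments were not tested against each other.

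**Figure D4:**
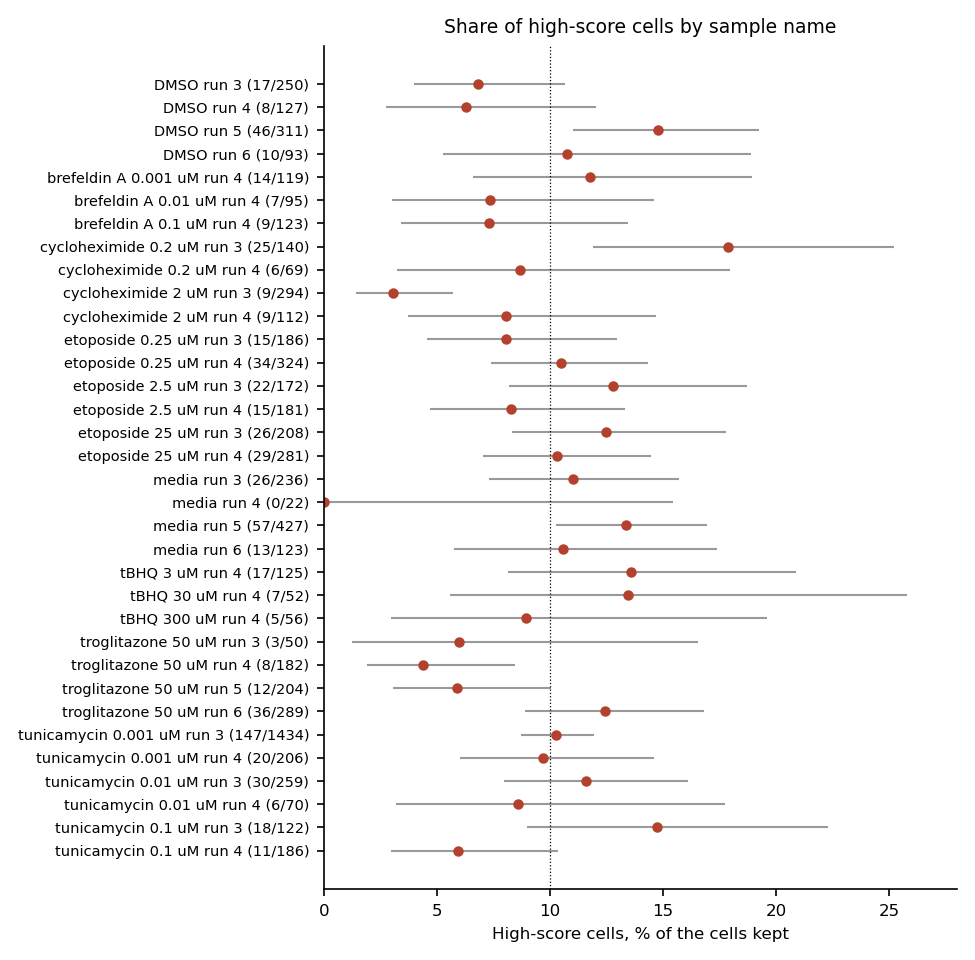
High-score cells in percent of the kept cells (horizontal axis) for each sample name with at least 20 kept cells, with exact 95% intervals for counting error, the counts in brackets and a dotted line at 10%. Sample names of the same treatment are spread, for example DMSO at 6.30% to 14.8%.

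Ratios between high-score and other cells were next read for their size under each treatment that could be compared. PCOLCE, POSTN and ALB had been counted by their sign in every sample name compared, so their sign under each treatment adds no support. The log2 ratio of PCOLCE was between 1.72, in the only sample name of 0.2 µM cycloheximide, and 2.95, in that of 3 µM tBHQ, as a mean per treatment, with 2.50 in DMSO. POSTN ran from 0.37 under 0.2 µM cycloheximide to 2.97 under 0.001 µM brefeldin A, with 2.73 in DMSO, where the 3 sample names lay between 1.29 and 5.24. ALB ran from -6.17 under 3 µM tBHQ to -2.42 under 0.001 µM brefeldin A, with -3.65 in DMSO (-6.24 to -1.98). For ALB the spread within DMSO covered the treatment means, whereas for POSTN the single cycloheximide value lay below all 3 DMSO values.

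Treatments were then compared with DMSO within the high-score cells, on UMIs summed per sample name (18 sample names with at least 10 high-score cells in treatments with 2 or more, 12393 genes, the 8 score genes left out). Troglitazone runs 3 and 4, with 3 and 8 high-score cells, and DMSO run 4, with 8, did not enter. At an adjusted p of 0.05 in edgeR's quasi-likelihood test, 0 genes (0%) passed for etoposide at 0.25, 2.5 and 25 µM, medium, and tunicamycin at 0.001 and 0.1 µM. At an unadjusted p under 0.05 these had 436, 571, 486, 227, 245 and 668 genes, and DESeq2 called 0, 1, 1, 0, 0 and 1. On simulated counts for 25 µM etoposide, the test recovered 24% of 50 genes raised 2-fold and 92% of 50 raised 4-fold among 11985 genes, and 14% and 84% of those lowered to 0.5 and 0.25 of their level, so smaller changes could be missed at this depth.

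Troglitazone at 50 µM raised 6 genes (0.0484% of those tested) and lowered none, with 733 at an unadjusted p under 0.05. The high-score cells of the 2 groups were spread differently over the clusters. Under troglitazone, 23 of 59 lay in the cluster led by FABP4 and 30 in the richest cluster, against 10 and 52 of 81 in DMSO. These counts include the cells of the sample names that did not enter the test. FABP4 was among the genes that made the clusters, and the part of this difference in the 6 calls was not tested. FABP4, the fatty acid-binding protein of adipocytes and a PPARγ target, was at 296 and 406 CPM in the high-score cells of runs 5 and 6 under troglitazone, and at 2.54, 4.72 and 1.67 CPM in those of DMSO runs 3, 5 and 6. The edgeR log2 fold change was 6.45 (SE 0.34, adjusted p = 1.2e-09). In the other cells it was at 100.4 and 117 CPM against 2.385, 1.396 and 0.474 CPM. FABP4 UMIs stood in 11 of 12 and 25 of 36 high-score cells under troglitazone, and in 1 of 17, 6 of 46 and 1 of 10 in DMSO. The rise was thus spread over many of the treated cells.

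CD36, a fatty acid transporter and PPARγ target (chr7:80369575-80679277), was at 120 and 86.2 CPM against 12.7, 4.47 and 0 CPM in high-score cells (edgeR log2 fold change 4.43, SE 0.77, adjusted p = 0.0377). A single cell of run 5 gave 89 of its 179 UMIs there. ACSL5, which activates fatty acids, was at 196 and 174 CPM against 73.6, 81.4 and 73.2 CPM (log2 fold change 1.27 in edgeR, adjusted p = 0.0377). RDH5, a retinol dehydrogenase, was at 81.8 and 195 CPM against 30.5, 39.5 and 41.6 CPM (1.83, edgeR adjusted p = 0.0377). In each of these genes the treated values lay above all DMSO values.

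The other 2 were matrix genes. LTBP1, which binds latent TGF-beta to the matrix (chr2:32946953-33399509), was at 131 and 95.1 CPM against 20.3, 18.9 and 26.6 CPM (edgeR log2 fold change 2.41, SE 0.34, adjusted p = 0.00568), and in the other cells at 76.3 and 49.0 against 23.3, 23.8 and 19.4 CPM. LAMA4, a laminin chain of vessels and fat (chr6:112107931-112254939), was at 260 and 144 CPM against 55.8, 39.7 and 13.3 CPM (2.51, edgeR adjusted p = 0.0377). FABP4 alone passed in each alternative tried, and LTBP1 in all but the 6-gene score and the fits without DMSO run 5 or troglitazone run 5. The calls for LAMA4, CD36, RDH5 and ACSL5 were all lost when DMSO run 3, 5 or 6 was left out, which gave 3, 3 and 2 calls in all, and without troglitazone run 5 there were 2 calls, FABP4 and RDH5. LAMA4, CD36, RDH5 and ACSL5 were also lost when run 3 of 2.5 µM etoposide was left out. That sample name is in neither group compared, but all treatments were fitted together. With the run as a block, RDH5 and ACSL5 were lost and 4 calls were left. The high-score cells of run 5 under troglitazone were also the deepest, at a median of 125764 UMIs per cell against 16820.5 in run 6.

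**Figure D5:**
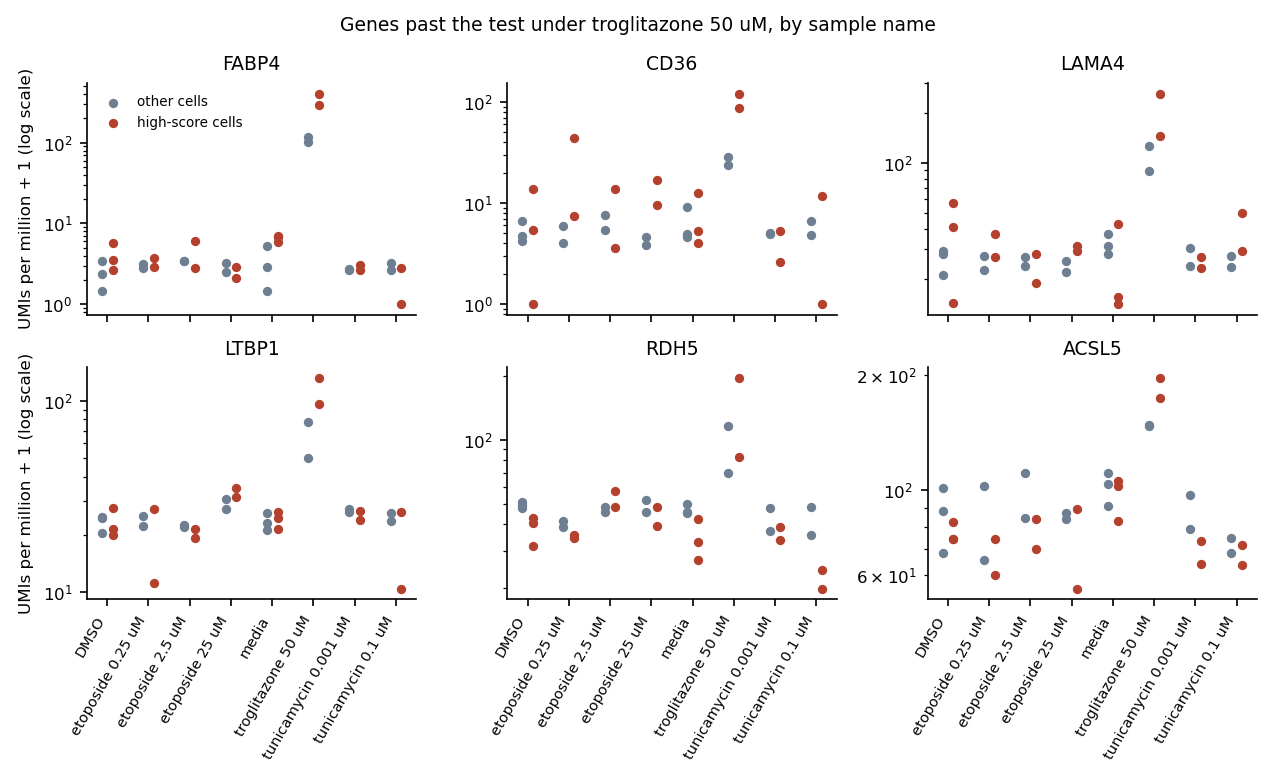
CPM + 1 (vertical axes, log scale) of the 6 genes past the test under 50 µM troglitazone, by treatment, with 1 point per sample name for high-score cells (red) and other cells (grey). The troglitazone points of each of the 6 genes lie above those of all other treatments in both classes.

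Whether a treatment acted differently in the 2 classes was tested by the interaction of class and treatment in edgeR, with the sample name as a block. None of 21360 genes passed in any of the 7 comparisons (0%), with 431 to 953 genes at an unadjusted p under 0.05, and DESeq2 was not run on the interaction. For troglitazone the interaction on the log2 scale was 0.16 for FABP4 (SE 0.49), 1.66 for CD36 (SE 0.72), 0.97 for LTBP1 (SE 0.32), 0.87 for RDH5 (SE 0.25), 0.51 for ACSL5 (SE 0.22) and 0.43 for LAMA4 (SE 0.41), all above 0 and all with an edgeR adjusted p of 1. These genes were chosen by their rise in the same high-score cells, which pushes their interaction upwards, so nothing is read from the sign. Among the genes nearest to the threshold were GRIA1, RAPGEF4 and LINC02889 for troglitazone (edgeR adjusted p = 0.433 each) and LINC02303 for 0.001 µM tunicamycin (0.453). On simulated counts with the same limit on level and the same spread, the interaction test recovered 4% of genes with a 2-fold difference upwards. It recovered 52% with a 4-fold difference upwards, and 0% and 34% downwards. A lack of calls thus does not show that the classes responded alike.

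For etoposide and tunicamycin, the agents with a stress list that entered the test, that list held no call. Under 25 µM etoposide, 14 of 16 p53 targets had a log2 fold change above 0 (list median 0.36 against -0.05 over all genes), none past the edgeR test. MDM2, which degrades p53, was at 1457 and 1537 CPM against 1175, 860 and 887 CPM in DMSO, and CDKN1A, which encodes the cyclin-dependent kinase inhibitor p21, at 99.3 and 108 against 50.8, 120 and 59.9 CPM, so the values of CDKN1A overlapped. MDM2 was above all DMSO values in medium alone too, at 1261, 1237 and 1271 CPM, and under 0.1 µM tunicamycin, at 1914 and 1362 CPM. Under 0.1 µM tunicamycin, 14 of 16 genes of the unfolded protein response were above 0 (median 0.45 against -0.07), none past the test. HSPA5, the ER chaperone BiP, was at 610 and 283 CPM against 322, 278 and 173 CPM. The cell cycle list had a larger median, 1.04, under 25 µM etoposide (12 of 14 above 0), and was at 0.96 in medium alone and 0.95 under 0.001 µM tunicamycin (13 of 14 in both), each without a call. The hepatocyte list was below 0 in 12 of 12 genes under 25 µM etoposide and 0.1 µM tunicamycin (median -1.52 and -1.42), with none past the test. Under 2.5 µM etoposide it was likewise below 0 in 12 of 12 (-1.56). Its median was 0.05 in medium alone and 0.10 under 0.001 µM tunicamycin.

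The matrix lists had no call other than LAMA4 under troglitazone. Under troglitazone, 4 of 7 collagens and 2 of 11 matrix glycoproteins were above 0 (medians 0.25 and -0.51). Under 25 µM etoposide these were 5 of 7 and 5 of 11 (0.42 and -0.05). POSTN was at 269.6 and 410 CPM under troglitazone and at 234, 207 and 1015 CPM in DMSO, so 1 DMSO value lay above both treated ones.

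For 4 treatments a single sample name held at least 10 high-score cells, so there is no replicate check. It was run 4 for brefeldin A and tBHQ, and run 3 for cycloheximide and tunicamycin. The reference was the sum of the DMSO high-score cells of runs 3, 5 and 6, 5024199 UMIs, of which 4029402 came from run 5. A difference by treatment and a difference by run cannot be told apart in these ratios. ALB was at 2256 CPM in the high-score cells of that run and at 1043 and 241 CPM in those of runs 3 and 6. Against this sum, genes differed at least 2-fold in 144 of 8094 upwards (1.78%) and 596 downwards (7.36%) for 0.001 µM brefeldin A, and in 99 (1.17%) and 300 (3.54%) of 8465 for 0.2 µM cycloheximide. The counts were 110 (1.38%) and 482 (6.03%) of 7992 for 3 µM tBHQ and 88 (1.02%) and 377 (4.37%) of 8619 for 0.01 µM tunicamycin. Several of the leading rises came from few cells. PAPPA2, at 43 of 665589 UMIs under brefeldin A against 26 of 5024199 in DMSO, came from 1 of 14 cells, and LINC02147, at 60 UMIs under tBHQ, from 1 of 17. LINC00276 came from 2 of 14 cells under brefeldin A (74 UMIs) and 2 of 25 under cycloheximide (32 UMIs, 31 of them in 1 cell). IL1RL1 under tunicamycin had 21 of its 23 UMIs in 1 of 30 cells. Other rises were spread wider, with ENSG00000286266 and ENSG00000281383 (27 UMIs each) in 11 and 14 of 30 cells under tunicamycin and LINC02462 (29 UMIs) in 7 of 25 under cycloheximide. Among the leading falls, CYP3A7 was at 0 UMIs under brefeldin A and cycloheximide, against 143 in DMSO. AFM was at 0 UMIs under cycloheximide and tBHQ, against 226 in DMSO.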

How the data were processed

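Single HepaRG cells were profiled with the Parse Evercode split-pool kit in 8 sublibraries. The authors deposited whole-number UMI counts per gene and cell, made with the kit's pipeline against GRCh38, with a table that names each cell's treatment and run. They hold 12976 cells, 62703 genes and 1002686268 UMIs. The members and the gene lists were chosen with earlier results of these data known. No doublet caller was run and no cells were removed beyond the rule.

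Counts were summed over the high-score and the other cells of each sample name with at least 10 of both. Ratios used CPM + 1, a floor of 5 CPM over all kept cells and a fold of 2, as a description without a test. Genes were named by rule, the 15 highest and 15 lowest ratios with at least 20 CPM and the same sign in 90% of sample names, up to 4 per list, and up to 5 per treatment and direction. ACSL5, the COL1A2 cell and further list members were chosen after their values were seen. For each treatment against DMSO, the quasi-likelihood test of edgeR 4.0.16 (R 4.3.3) was used, scaled by total UMIs, with Benjamini-Hochberg adjustment at 0.05. The class by treatment interaction had the sample name as a block. Both tests were tried on simulated data. Replicate sample names differed by more than sampling noise (chi-square per degree of freedom 3.14 to 8.69). Clusters used Leiden in scanpy 1.11.5 with 2000 genes, 30 components and 15 neighbours at a resolution of 1.0. Alternatives were TMM and DESeq2 size factors, DESeq2 1.42.0, no filter, run as a block, other definitions of the score and leaving out each sample name. Intervals are exact Clopper-Pearson at 95%. Gene positions are from GENCODE 44 on GRCh38. Some genes that the naming rule selects are not reported here.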

Additional observations from a re-analysis of the deposited data

Results flagged for a closer look

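The median depth of the high-score cells stood apart in 2 sample names. In DMSO, run 5 had a median of 67644 UMIs per high-score cell, against 13933.5 to 19617.5 in runs 3, 4 and 6. Under 50 µM troglitazone, run 5 had a median of 1.2576e+05 UMIs, against 16266.5 to 20089 in runs 3, 4 and 6. Both were far from the rest of their treatment by Dixon's criterion, among 10 groups of values looked at, and chance marks about 1 in 20 groups. The troglitazone comparison of the high-score cells rests on both of these sample names.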

How the results depend on the processing

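The counts of genes higher and lower in the high-score cells ranged from 220 to 332 and from 561 to 1025 over 28 alternatives, and no named ratio changed sign. Of the single ratios, MIR122HG moved to -3.03 with the top 20% and ENSG00000232053 to 2.39 with a thinned score. Against DMSO, without a filter beyond 1 UMI, calls were 22, 40 and 80 for etoposide at 0.25, 2.5 and 25 µM, 16 for medium, 88 for troglitazone, and 18 and 48 for tunicamycin at 0.001 and 0.1 µM. The cause was not tested. DESeq2 called 16 genes for troglitazone, and 1 each for 2.5 and 25 µM etoposide and 0.1 µM tunicamycin. Troglitazone had 10 calls with the top 10% taken within each sample name, 1 (FABP4) with 6 genes in the score. Cycloheximide at 2 µM had 9 high-score cells in run 3 and 9 in run 4, and so did not enter the main test. With the top 10% taken within each sample name it entered, and had 6 calls among 12111 genes, 1 higher and 5 lower. With the run as replicate block troglitazone had 4 calls and the other treatments 0. Over all genes the runs were not taken as pairs, since deviations of same-run pairs correlated at -0.07 to 0.33 (37 pairs, median 0.03). Single genes did go with the run: COL3A1 in the other cells of DMSO, medium and troglitazone was at 54.1, 52.5 and 74.3 CPM in run 5 and at 3.79, 4.43 and 16.2 CPM in run 6. Leaving out 1 sample name gave 2 to 6 calls for troglitazone, 0 to 1 for 0.25 µM and 0 to 2 for 25 µM etoposide, and 0 to 1 and 0 to 2 for tunicamycin at 0.001 and 0.1 µM. For the interaction it gave 0 to 9 for troglitazone, 0 to 4 and 0 to 2 for etoposide at 0.25 and 25 µM, and 0 to 2 for tunicamycin at 0.001 and at 0.1 µM. The DMSO share was 13.8% with no mitochondrial limit, the troglitazone share 5.89% without COL3A1 in the score, and the richest cluster held 83.7% of the high-score cells at a resolution of 0.5. The high-score cells of most sample names number 10 to 57, which limits the tests to large changes.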

Other observations

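The cells outside the rule that reached the score limit also carried matrix genes. No comparison of treatments used these cells. Under rotenone, an inhibitor of mitochondrial complex I, the 30 cells at or above the score limit held MGP at 114 CPM against 4.82 CPM in the rest, DPT at 42.8 against 1.79 CPM, PCOLCE at 299.8 against 20.4 CPM and SPARC at 79.6 against 9.08 CPM. PECAM1 was at 8.26 against 1.97 CPM there, and TF at 30.8 against 434 CPM. In the 83 cells above the mitochondrial limit, DPT was at 18.96 against 1.131 CPM, RUNX2 at 464 against 103 CPM and PECAM1 at 19.7 against 3.06 CPM. These values are sums over cells without a replicate check.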
